A study of Rattus norvegicus with 138 samples.

Results

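The miR-23, miR-27 and miR-24 microRNAs (miRNAs) are processed from 2 gene clusters, and 6 of their mature products were followed in the serum of rats carrying metal pellets: miR-24-3p, miR-23a-3p, miR-23b-3p, miR-27a-3p, miR-27b-3p and miR-3074. They were taken by name from a table of 471 mature rat miRNAs counted in 138 small RNA libraries, and 6 of the 6 names were present. The animals were male Sprague-Dawley rats, 3 months old when operated on, with 2 pellets placed in the gastrocnemius muscle of each hind limb, 4 per rat. The pellets were tantalum (Ta), which served as the surgical control because it is inert in muscle, or 1 of 8 metals under study: aluminium (Al), cobalt (Co), copper (Cu), depleted uranium (DU), iron (Fe), lead (Pb), nickel (Ni) and tungsten (W). Serum was drawn at 1, 3, 6 and 12 months, giving 35 groups: 33 groups of 4 libraries, 2 groups of 3 (Ta and W at 6 months) and none for Ni at 12 months. Every group, Ta included, had surgery and a foreign body in muscle, and unoperated rats were not analysed here.

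miRNAs are short RNAs that pair with messenger RNAs, mostly through the seed (bases 2 to 8 of the miRNA), and lower their translation and stability. Each of the miR-23, miR-27 and miR-24 clusters is transcribed as a single precursor whose hairpins are then cut apart, and vertebrate genomes carry an intergenic copy (23a, 27a, 24-2) and a copy inside a host gene (23b, 27b, 24-1). Their products are made in many tissues, endothelium, muscle and blood cells among them, where they are known for roles in vessel growth, fat and muscle cell differentiation and immune regulation. Serum holds miRNAs released from many tissues, so in these libraries the number of releasing cells and the amount released per cell cannot be told apart.

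The mature sequences are shown because the family relations, and the difficulty of telling the copies apart, lie in a few letters. They are given as RefSeq lists them with the rat assembly GRCr8, 5′ to 3′, in lower case with the seed in capitals.
miR-23a-3p: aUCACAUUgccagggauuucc
miR-23b-3p: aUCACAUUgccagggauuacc
miR-27a-3p: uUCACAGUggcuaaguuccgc
miR-27b-3p: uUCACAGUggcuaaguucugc
miR-24-3p: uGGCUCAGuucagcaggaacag
miR-3074: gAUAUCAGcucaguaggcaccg
miR-24-1-5p: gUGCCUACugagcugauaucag

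The 6 miRNAs have 4 seeds. The 2 miR-23 copies share 1 seed and the 2 miR-27 copies share another, and among 693 mature names in RefSeq no other name had either of them, nor that of miR-24-3p or of miR-3074. Counted from the 5′ end, miR-23a-3p and miR-23b-3p differ by 1 base of 21 (U19A), and miR-27a-3p and miR-27b-3p by 1 base of 21 (C19U), in both cases near the 3′ end and outside the seed. A read that ends early or carries an error at that base could be given to either copy, so the split within each pair is uncertain. The sum of a pair is not touched by reads given to the wrong copy. It would be touched by reads that were dropped or counted at both copies. On GRCr8, Mir23a, Mir27a and Mir24-2 lie on the minus strand of chromosome 19 within 389 bases, and Mir23b, Mir27b and Mir24-1 on the minus strand of chromosome 17 within 814 bases. Both Mir24 hairpins give the same miR-24-3p, so its level cannot be divided between the clusters. miR-3074 comes from the opposite (plus) strand of chromosome 17: its hairpin covers all 68 bases of the Mir24-1 hairpin, and 20 of its 22 bases lie opposite miR-24-1-5p, the last sequence above. Whether the authors' counting used the strand is not given in the sources used here.

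Library totals ran from 518 to 6406599 counts (median 685384.5). There were 6 libraries under 20000 counts, 4 of them at 3 months: Ta replicate 3 (1645 counts), DU replicate 4 (518), Ni replicate 3 (3343) and Al replicate 3 (7909). The other 2 were Co replicate 1 at 1 month (12213) and W replicate 3 at 12 months (3789). At 3 months the median total was 286094 and the median number of miRNAs found was 99.5, where the 1-month libraries had 1114449 and 216. The labels number the samples of a group from 1 to 4 but do not say which of the 8 rats stated per group they came from, so every p measures the spread between these samples.

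miR-24-3p was the main product of the clusters in serum. It made up 4.47% of all counts, ranked 5 among the 471 miRNAs and was counted in 138 of 138 libraries, at a median level of 45700 CPM (the count relative to the library size as scaled with edgeR's TMM factors). miR-27b-3p followed with 0.757% of counts (rank 20, median 7668 CPM, 137 libraries), then miR-23a-3p with 0.476% (rank 27, 4122 CPM, 133 libraries) and miR-27a-3p with 0.143% (rank 48, 1438 CPM, 129 libraries). miR-23b-3p was far lower at 0.0144% (rank 106, 120 CPM, 114 libraries), and miR-3074 was the least abundant at 0.00081%, with counts in 33 libraries and a median of 0. miR-24-3p, miR-27b-3p, miR-23a-3p, miR-27a-3p and miR-23b-3p are called the 5 arms below, an arm being the strand cut from 1 side of a hairpin. All 6 miRNAs are 21 or 22 bases long, so CPM is compared between them without a length term. The preference of the library kit for some ends over others was not measured here.

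The miR-24-3p count has a feature that bears on its level. It was an even number in 138 of 138 libraries, and RefSeq lists 2 hairpins for it. With its counts halved it would make up 2.29% of all counts instead of 4.47%. Of 273 miRNAs counted in 16 or more libraries, 24 had counts that were all multiples of a whole number above 1. Of the 17 of these 273 with several hairpins in RefSeq, 8 did so, in 7 with the number of hairpins as the multiple, but 15 of 233 with a single hairpin did so too. The counts of miR-23a-3p, miR-23b-3p, miR-27a-3p, miR-27b-3p and miR-3074 had no such multiple. How reads matching several loci were assigned is not given in the sources used here.

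Within each pair of copies, 1 copy prevailed, and it was not the same cluster in both. Over all libraries miR-23a-3p, from chromosome 19, made up 97.1% of the miR-23a-3p plus miR-23b-3p counts, with a median of 97.9% over the 129 libraries with at least 20 counts of the pair. It was the majority in 128 of these 129 libraries. The exception was the Fe library with the lowest share, 29.3%. miR-27a-3p, from the same chromosome 19 cluster, made up only 15.9% of the miR-27a-3p plus miR-27b-3p counts, with a median of 16.7% and a range of 0% to 43.7% over 132 libraries. It was the majority in 0 of 132, so the chromosome 17 copy, miR-27b-3p, led in each of them.

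**Figure D1:**
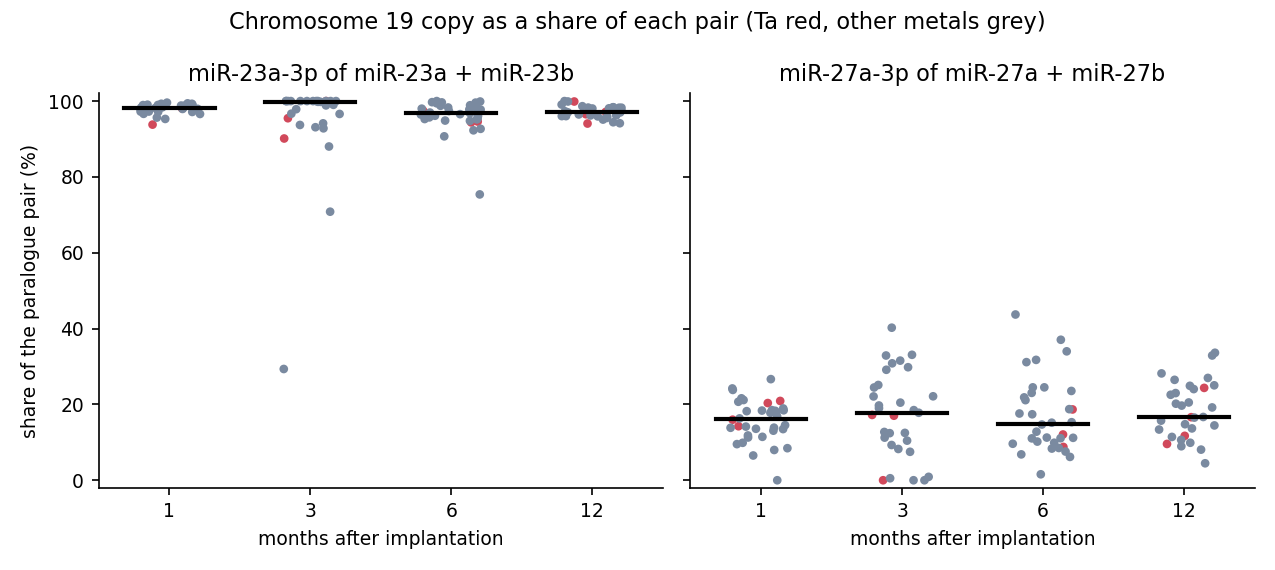
Share of the chromosome 19 copy (%) in each pair of copies, by months after implantation, 1 point per library with at least 20 counts of the pair, Ta in red and the other metals in grey, bars at the medians. miR-23a-3p sits near the top (overall median 97.9%) and miR-27a-3p near the bottom (overall median 16.7%) at every time point.

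These shares compare counts inside a library and so need no scaling between libraries. miR-23 (both copies) made up 35.2% of miR-23 plus miR-27 counts, and miR-24-3p 76.3% of the 5 arms (median over libraries 76.3%, or 61.6% with its counts halved). No difference of the 4 shares between a metal and Ta was called: 0 of 32 tests, with a smallest adjusted p of 0.333 (permutation test within time points, two-sided, Benjamini-Hochberg). That smallest value was reached by miR-23a-3p within its pair in Cu (98.2% ± 1.29, SD, 16 libraries) and in DU (98.3% ± 1.26, 15 libraries), against 96.4% ± 2.77 in 14 Ta libraries. In DU, miR-27a-3p made up 21.5% ± 9.90 (SD, 15 libraries) of its pair and 14.8% ± 6.14 in Ta (14 libraries), with an adjusted permutation p of 0.352. The same 4 shares compared between time points gave 0 of 24 calls. The smallest adjusted permutation p there was 0.0866, for miR-23a-3p within its pair at 6 months (96.2% ± 4.61, 30 libraries) against 1 month (98.1% ± 1.28, 31 libraries).

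The question of the study was whether circulating miRNAs mark exposure to a particular metal, and for the 5 arms other than miR-3074 no difference from Ta was called by edgeR. DESeq2 called 1, miR-23b-3p in Co averaged over time points. In Ta, miR-24-3p was at 69095, 60331, 59843 and 64105 CPM at 1 month. At 3 months the 4 Ta libraries were at 8750, 29606, 7175 and 45729 CPM, and at 6 months the 3 were at 49479, 32166 and 36554. At 12 months they were at 45228, 23649, 39261 and 68104 CPM. The Ta libraries were close together at 1 month and spread widely at 3 months, where the range of replicates overlapped both the 6-month and the 12-month ranges.

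Over all time points, mean miR-24-3p was 50361 ± 23042 CPM (SD, n = 12) in Ni and 50173 ± 27298 (n = 16) in Al, the highest. It was 47985 ± 19395 in Cu, 46507 ± 25608 in DU, 46343 ± 32259 in Co, 45035 ± 18716 in Fe and 43837 ± 22456 in Pb (n = 16 each). Ta (42605 ± 19957, n = 15) and W (42404 ± 23533, n = 15) were the lowest. This order rested in part on libraries under 20000 counts. Without them Pb (43837 CPM), Fe (45035), Ta (45136) and W (45352) were the lowest, and Al (53342) lay above Ni (52107). The 9 means span less than a single SD. Each SD pools the time points, so it holds the change with time as well as the spread between samples. The Ni mean lacks the 12-month libraries. Averaged over time points in the edgeR fit, the log2 difference of miR-24-3p from Ta lay between -0.02 ± 0.30 (SE) in Co and 0.27 ± 0.35 in Ni.

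For miR-27b-3p the means ran from 6389 ± 2859 CPM in W and 7077 ± 4198 in DU, over 7588 ± 5232 in Co, 7837 ± 3101 in Ta, 7861 ± 4271 in Cu, 8114 ± 4770 in Fe and 8337 ± 6094 in Pb, to 9873 ± 5183 in Ni and 12192 ± 15530 in Al. The Al mean rested on 1 library of 7909 counts at 3 months, in which miR-27b-3p reached 68782 CPM. The median in Al, 8051 CPM, was next to that in Ta, 7941 CPM. The fitted log2 difference from Ta averaged over time points was lowest in Co (-0.30 ± 0.39) and highest in Al (0.56 ± 0.39), and neither was called (edgeR quasi-likelihood, adjusted p = 1.00).

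For miR-23a-3p, Ni (6521 ± 3705 CPM) and DU (5936 ± 3937) had the highest means and W (3755 ± 2378) the lowest. Cu (4851 ± 2359), Al (4471 ± 3512), Ta (4292 ± 2862), Co (4278 ± 3074), Fe (4253 ± 3038) and Pb (4170 ± 2929) lay between. Its averaged log2 difference from Ta ran from -0.25 ± 0.49 in Co to 0.52 ± 0.58 in Ni. For miR-27a-3p the order was Fe (1834 ± 878 CPM), Pb (1688 ± 1870), DU (1658 ± 893), Cu (1484 ± 548), Ni (1479 ± 957), Al (1446 ± 746), Ta (1389 ± 754), Co (1259 ± 1010) and W (1162 ± 678). Its averaged log2 difference ran from -0.30 ± 0.53 in Co to 0.41 ± 0.54 in Fe. In both orders the SD within a metal exceeded the gaps between neighbours, but it pools the time points and so holds the change with time too. These means include the libraries under 20000 counts.

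miR-23b-3p, the rarest of the 5, varied most. Its mean was 232 ± 349 CPM in Al, 228 ± 172 in Ni, 137 ± 145 in Fe, 133 ± 101 in Ta, 128 ± 179 in Pb, 126 ± 110 in Co, 114 ± 117 in DU, 105 ± 97.8 in Cu and 96.3 ± 90.5 in W. Its largest fitted difference was in Co, which was lower than Ta by the fit (log2 difference -2.34 ± 0.93 averaged over time points), but this was not called by edgeR's quasi-likelihood test (adjusted p = 0.154). DESeq2 called it (-5.18 ± 0.71, adjusted p = 1.76e-11). Without the 3-month libraries the edgeR difference was 0.12 ± 0.69, also not called. At 3 months 4 of 4 Co libraries had no miR-23b-3p count, with totals of 158279, 169016, 115671 and 214004. The size of -2.34 is therefore set in part by the prior count of the fit. At 3 months 2 of 4 Ta libraries had none either, and the other 2 held 82 counts of 343321 and 461 of 2195682. At 6 months Co was at 286, 136, 196 and 297 CPM against 274, 95.9 and 176 in Ta, so the groups overlapped.

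**Figure D2:**
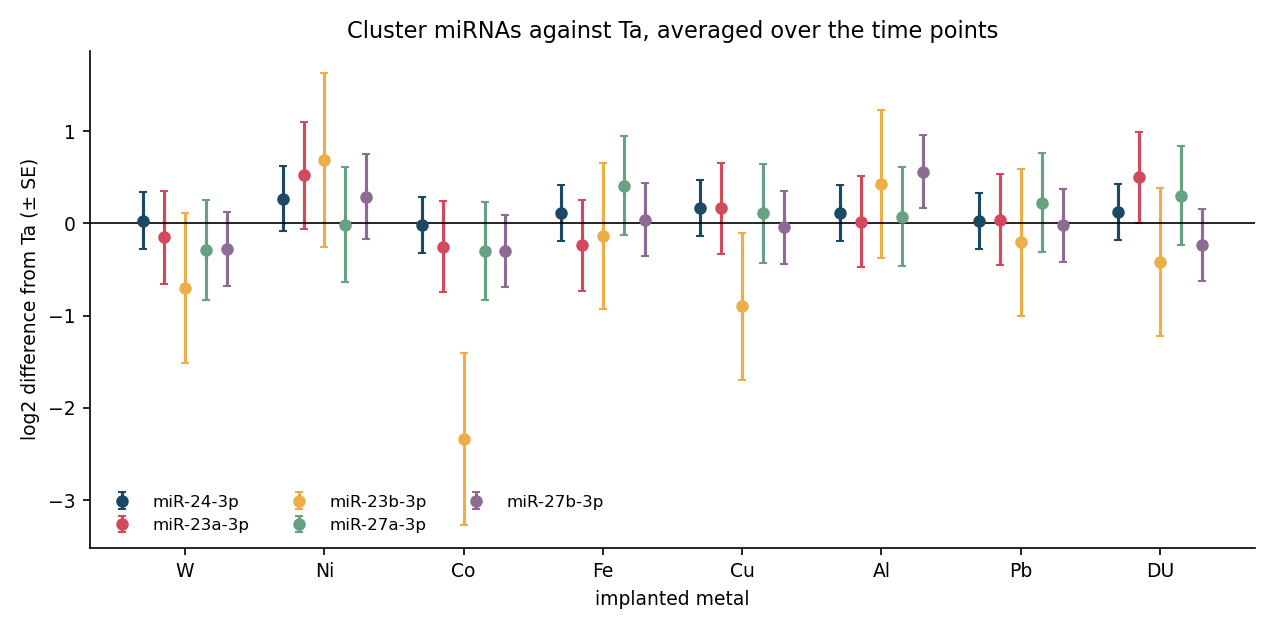
Fitted log2 difference from Ta (± SE) of 5 arms in each of the 8 metals, averaged over the time points at which the metal was sampled. All points other than miR-23b-3p in Co (-2.34) lie within 1 log2 unit of 0. The size of that point is set in part by the prior count of the fit, because the 3-month Co libraries were at 0.

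At single time points the comparisons of the 8 metals share the Ta libraries of that time, so the 31 comparisons are not independent. Of 171 tests of these miRNAs (6 of the 6 passed the low-count filter at 1 and 6 months, 5 at 3 and 12 months, without miR-3074), 0 were called and 3 had an unadjusted p under 0.05 (edgeR quasi-likelihood): miR-23b-3p in Co at 3 months, and miR-3074 in Co and in DU at 1 month. DESeq2 also called 0. miR-3074 had no count in Ta, so it passed the filter only through the other metals and could only be higher than Ta. Over all miRNAs tested 0.193% were called (14 of 7240) and 10.5% had an unadjusted p under 0.05, so few calls were made for any miRNA. The share called ran from 0% in most comparisons to 0.37% in Fe and in Pb at 1 month, 1.2% in Co at 3 months, 2.94% in Pb at 6 months, and 0.446% in W and in DU at 12 months. The widest fitted differences of miR-24-3p were -0.64 ± 0.93 (Co at 3 months) and 0.99 ± 0.66 (Pb at 12 months, adjusted p = 0.506). Those of miR-23a-3p were -1.38 ± 1.5 (Fe at 3 months) and 1.44 ± 0.80 (Ni at 6 months), and those of miR-27b-3p were -1.32 ± 1.20 (Co at 3 months) and 0.92 ± 0.47 (Pb at 1 month). miR-27a-3p lay between -1.14 ± 1.88 in Co and 1.02 ± 1.88 in DU, both at 3 months. Those of miR-23b-3p were -9.15 ± 4.00 (Co at 3 months; edgeR, adjusted p = 0.181) and 1.54 ± 1.69 (Al at 6 months). The size in Co is set by the prior count of the fit, because that group was at 0. The median SE over the 31 comparisons was between 0.64 (miR-24-3p) and 1.60 (miR-23b-3p).

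Averaged over time points, 43 differences could be estimated and 1 was called by edgeR: miR-3074 in DU. DESeq2 called 9, miR-3074 in 8 of 8 metals and miR-23b-3p in Co. Over all miRNAs 1.09% of the tests of these 8 averages were called by edgeR. The share was 3.75% in DU (12 of 320), 4.38% in Pb, 0.312% in Fe and in Cu, and 0% in W, Ni, Co and Al. Of the 320 miRNAs in the DU average, 191 had a difference that could be estimated, and 6.28% of these were called. A difference cannot be estimated where both sides of a comparison hold a group without a single count, and for miR-3074 this was so in 5 of the 8 metals.

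miR-3074, the product of the strand opposite Mir24-1, was found in a minority of libraries and not in Ta. It had no count in any of the 15 Ta libraries, which together held 10506700 counts. The 3 counts that a count of 0 still allows over this total come to 0.286 CPM, for counting error only. In the 8 other metals 33 of 123 libraries had counts: 7 of 16 in DU, 6 of 16 in Cu, 5 of 16 in Co, 4 of 12 in Ni, 3 of 15 in W, 3 of 16 in Fe, 3 of 16 in Al and 2 of 16 in Pb. Where it was found, its count was between 2 and 299 (median 11) and was under 10 in 12 of the 33 libraries. The 7 DU libraries held 8, 10 and 11 counts at 1 month, 32 at 3 months, 215 at 6 months, and 8 and 6 at 12 months. The other 9 DU libraries had none, at least 1 of them at each time point, so the ranges of DU and Ta meet at 0.

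**Figure D3:**
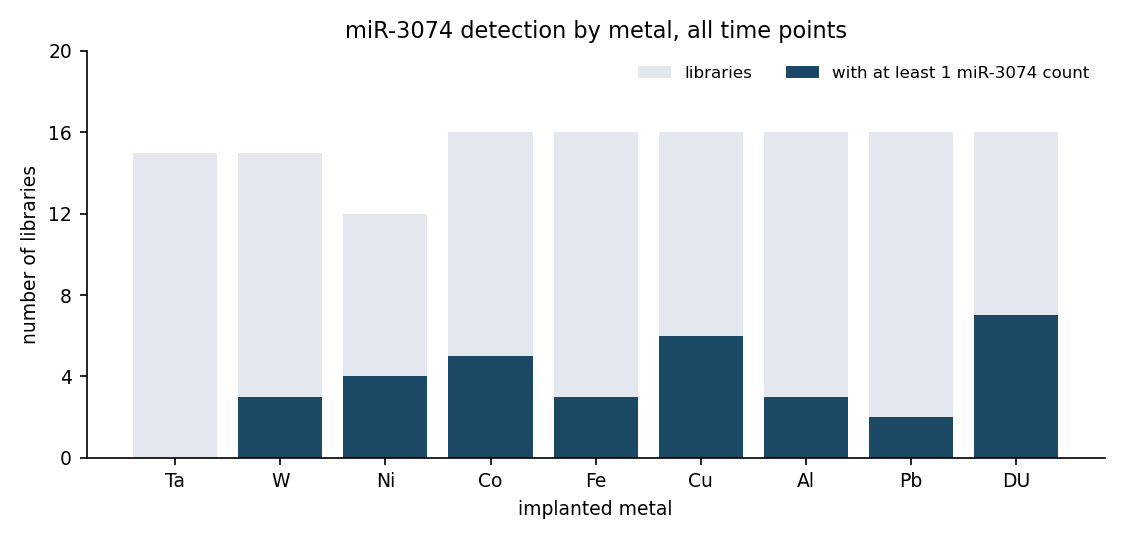
Number of libraries with at least 1 miR-3074 count (dark bars) among all libraries of each metal (light bars), all time points together. Ta has 0 of 15, and the other metals range from 2 of 16 (Pb) to 7 of 16 (DU).

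Averaged over time points, the difference of miR-3074 from Ta was called in DU (edgeR quasi-likelihood, adjusted p = 0.0213) and not in Ni (adjusted p = 0.0731) or Cu (adjusted p = 0.10). In W, Co, Fe, Al and Pb it could not be estimated. The fitted size is not given, because against a group at 0 it is set by the prior count of the fit. With no count in Ta, miR-3074 passed the low-count filter only through libraries of the other metals. Its difference from Ta could therefore only be higher, and the call in DU is not independent of that filter. The call in DU was lost without Ta replicate 4 at 3 months (adjusted p = 0.0561) and without Ta replicate 3 at 6 months (adjusted p = 0.0569). Without DU replicate 2 at 3 months or DU replicate 2 at 6 months, that time point had no DU count left and the difference could not be estimated. It was also lost without the 1-month, the 3-month or the 12-month libraries (adjusted p = 0.0770, 0.0610 and 0.0659). The calls of DESeq2 for miR-3074 include the metals where edgeR had no estimate.

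Blood cell markers differed in the same DU average, and the red cell list not in DU alone. Its median log2 difference from Ta was -1.65 in DU and lay between -2.04 (Co) and -0.90 (Al) over the metals. In Cu miR-451-5p was called lower too, and in Pb miR-16-5p (edgeR). The levels below include libraries under 20000 counts, namely DU replicate 4 and Ta replicate 3 at 3 months. Of the 4 red cell miRNAs tested 1 was called lower in DU, miR-451-5p (-1.69 ± 0.52; edgeR, adjusted p = 0.0394), and their summed level was 0 to 33978 CPM (median 2894) in the 16 DU libraries and 1651 to 741386 (median 5846) in the 15 Ta libraries. Of the 4 leukocyte and platelet miRNAs 1 was called higher, miR-142-3p (edgeR, adjusted p = 0.0343), which was at 0 in at least 50% of the libraries of either metal, and their sum was 0 to 9515 CPM (median 4465) in DU and 3115 to 12702 (median 5528) in Ta. Of the endothelial, liver and skeletal muscle lists 0 of 9 miRNAs were called, and the difference of miR-133b-3p among them could not be estimated. The log2 ratio of miR-451-5p to miR-23a-3p had a median of -2.11 in DU and -0.06 in Ta. In the other metals its median lay between -1.99 (Cu) and 0.08 (W), so a low ratio was not particular to DU. The part of these markers in the miR-3074 call was not tested.

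Depth moved with the detection of miR-3074. The median total was 1067186 counts in libraries where it was found and 580423 where it was not, and it was 539673 in Ta against 740656 in the other metals and 1220326.5 in DU. The part of depth in the detection was not tested. By time, miR-3074 was found in 12 of 36 libraries at 1 month, 4 of 36 at 3 months, 6 of 34 at 6 months and 11 of 32 at 12 months. miR-24-1-5p, which lies opposite it, was found in 9 libraries, 3 of them among the 33 with miR-3074. miR-27a-5p was found in 32 of those 33 libraries, which is 97.0% of them but 33.0% of the 97 libraries with miR-27a-5p.

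The 5 other arms changed with time, and the change was at 3 months. At 1 month miR-24-3p was between 5768 and 98188 CPM (median 59834, 36 libraries), and at 3 months between 2633 and 60582 (median 20957, 36 libraries). It was back at a median of 47184 CPM (6863 to 67219, 34 libraries) at 6 months and of 60911 (1138 to 117315, 32 libraries) at 12 months. The ranges of the time points overlap over all libraries, but the median was lower at 3 than at 1 month within 8 of the 8 metals sampled at every time, and within 3 of them the 3-month libraries were all below the 1-month libraries. Such counts by metal, here and for the arms below, were not made for other miRNAs. Of all 320 miRNAs tested 35.6% were called lower in this comparison (edgeR). The fit gave 3 against 1 month a log2 difference of -1.38 ± 0.21 (edgeR quasi-likelihood, adjusted p = 6.56e-08).

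miR-23a-3p went from a median of 6738 CPM at 1 month (0 to 11115) to 1595 at 3 months (0 to 7497), then 4515 at 6 months (816 to 14050) and 4602 at 12 months (0 to 12425). Its log2 difference of 3 against 1 month was -1.62 ± 0.35 (edgeR, adjusted p = 4.69e-05). Its median was lower at 3 months in 8 of 8 metals, with no overlap of libraries in 2 of them. miR-27b-3p went from a median of 9279 CPM (4762 to 23662) to 3774 (0 to 68782), then 8073 (1617 to 18208) and 9214 (569 to 19329). Its log2 difference of 3 against 1 month was -1.15 ± 0.28 (edgeR, adjusted p = 2.24e-04), with a lower median in 8 of 8 metals and no overlap of libraries in 4 of them. In Ta, for example, it was at 6566, 6709, 9279 and 7636 CPM at 1 month and at 1465, 3723, 3587 and 7941 at 3 months, where the highest library lay within the 1-month range.

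For miR-27a-3p the median was 1804 CPM at 1 month (0 to 3493), 672 at 3 months (0 to 3131), 1303 at 6 months (118 to 8165) and 1834 at 12 months (0 to 3238). The log2 difference of 3 against 1 month was -1.003 ± 0.37 (edgeR, adjusted p = 0.0205). The median of miR-27a-3p was lower at 3 months in 8 of 8 metals, with no overlap of libraries in 0 of them. miR-23b-3p was counted in 35 of 36 libraries at 1 month (median 127 CPM) but in 16 of 36 at 3 months (median 0), then in 33 of 34 at 6 months (median 158) and 30 of 32 at 12 months (median 128). Its log2 difference of 3 against 1 month was -1.81 ± 0.61 (edgeR, adjusted p = 9.41e-03). The median was lower at 3 months in 7 of 8 metals, with no overlap of libraries in 0 of them. The call of miR-23b-3p rested on Co, whose 3-month libraries were at 0, so its fitted size is set in part by the prior count. Without the Co libraries the difference was -0.62 and was not called (edgeR, adjusted p = 1.00). Without Cu it was -1.53 (edgeR, adjusted p = 0.0501).

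**Figure D4:**
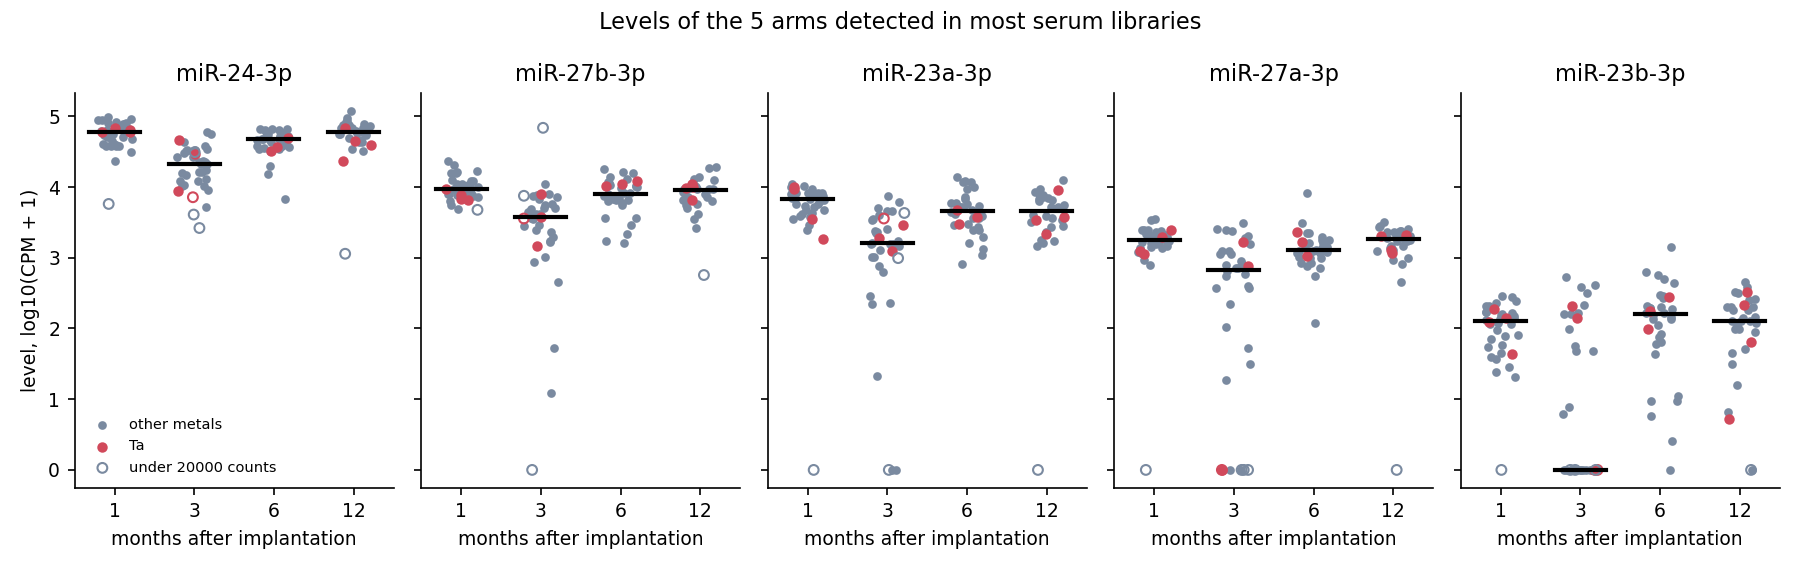
Level of 5 arms, as log10(CPM + 1), in each library by months after implantation, Ta in red, other metals in grey, libraries under 20000 counts as open circles and bars at the medians. The median of each arm is lowest at 3 months, for miR-24-3p 20957 CPM against 59834 at 1 month, and miR-23b-3p has a median of 0 there.

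With 5 of 5 arms lower at 3 than at 1 month, their count has to be read against that of all miRNAs, since 43.8% of the 320 miRNAs tested were called in this comparison, 35.6% of them as lower. Among the 202 miRNAs with a difference that could be estimated, 69.3% were called and 56.4% were lower. The median log2 difference of these 202 was -1.496, and that of the 5 arms was -1.38, so they moved about as far as the typical miRNA in the table. The counts of metals with a lower median or without overlap were made for the 5 arms only, so they have no such background. The comparison with abundant miRNAs alone, chosen after these values were seen, was different. Of the 63 miRNAs with a mean of at least 1000 CPM, 31 were lower and 19 higher by the same test, with a median of -0.57, and of -0.18 for the 59 that are not among the arms described here. The 4 arms in that group, miR-24-3p, miR-23a-3p, miR-27a-3p and miR-27b-3p, were all lower, by 1.003 to 1.62 on the log2 scale.

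The size of the change at 3 months depended on the scaling between libraries. With DESeq2's size factors (RLE) in place of TMM, the median log2 difference of all 320 miRNAs between 3 and 1 month moved from -1.62 to -1.28. miR-24-3p was then at -0.79 ± 0.20 (edgeR, adjusted p = 4.87e-04) and miR-23a-3p at -0.92 ± 0.33 (adjusted p = 0.0170), both still called. miR-27b-3p (-0.43, adjusted p = 0.252), miR-27a-3p (-0.32, adjusted p = 0.700) and miR-23b-3p (-1.46, adjusted p = 0.0737) were no longer called by edgeR with this scaling. The direction was the same for all 5 arms under both scalings. Summing the copies sets aside reads given to the wrong copy, though not reads dropped or counted at both. The sums were at -1.60 ± 0.35 for miR-23a-3p plus miR-23b-3p and -1.13 ± 0.27 for miR-27a-3p plus miR-27b-3p, both called (edgeR, adjusted p = 5.01e-05 and 2.13e-04).

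After 3 months the levels were higher again. At 6 against 3 months 3 of the 5 arms were called higher, where 18.8% of all 320 miRNAs were called and 12.8% were higher. Of the 139 miRNAs with a difference that could be estimated, 43.2% were called and 29.5% were higher. The differences were 1.00 ± 0.22 for miR-24-3p, 1.17 ± 0.35 for miR-23a-3p and 2.29 ± 0.63 for miR-23b-3p (edgeR, adjusted p = 1.89e-04, 8.80e-03 and 3.36e-03). miR-27b-3p (0.72 ± 0.28, adjusted p = 0.0528) and miR-27a-3p (0.76 ± 0.38, adjusted p = 0.191) were not called by edgeR. The sum of these 2 copies was called, close to the threshold (0.72 ± 0.27; edgeR, adjusted p = 0.0475). At 12 against 3 months 5 of 5 were called higher, from 0.92 ± 0.27 for miR-27b-3p to 2.23 ± 0.62 for miR-23b-3p, with miR-24-3p at 1.42 ± 0.21 (edgeR, adjusted p = 6.10e-08). The share of all miRNAs called there was 28.8%, and 24.1% were higher, or 51.7% and 43.3% of the 178 that could be estimated. The sizes for miR-23b-3p are again set in part by the prior count, as Co was at 0 at 3 months. Without the Co libraries miR-23b-3p was called in neither comparison (1.02 at 6 against 3 months and 1.03 at 12 against 3 months; edgeR, adjusted p = 0.379 and 0.270).

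Between the other time points 0 of the 5 arms were called by edgeR or by DESeq2. Of these tests 1 had an unadjusted p under 0.05 in edgeR, miR-24-3p at 12 against 6 months (0.43 ± 0.22, adjusted p = 0.314). The background was 14.4% of miRNAs called at 6 against 1 month, 11.6% at 12 against 1 month and 9.06% at 12 against 6 months. The 12-month level of miR-24-3p differed from the 1-month level by a log2 of 0.04 ± 0.21, and those of the other arms by -0.29 ± 0.34 (miR-23a-3p) to 0.42 ± 0.55 (miR-23b-3p). A time point here is also an age of the rats and, as the labels give no processing dates, any batch by which serum was drawn or sequenced, and these cannot be told apart. Whether the difference from Ta changed with time was tested for each of the 6 miRNAs in each metal. None of the 48 interactions was called (smallest adjusted p = 0.178 by edgeR's F test), and 1 had an unadjusted p under 0.05. The tests of miR-3074 among them could not decide this, because no Ta library had a count of it at any time point.

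**Figure D5:**
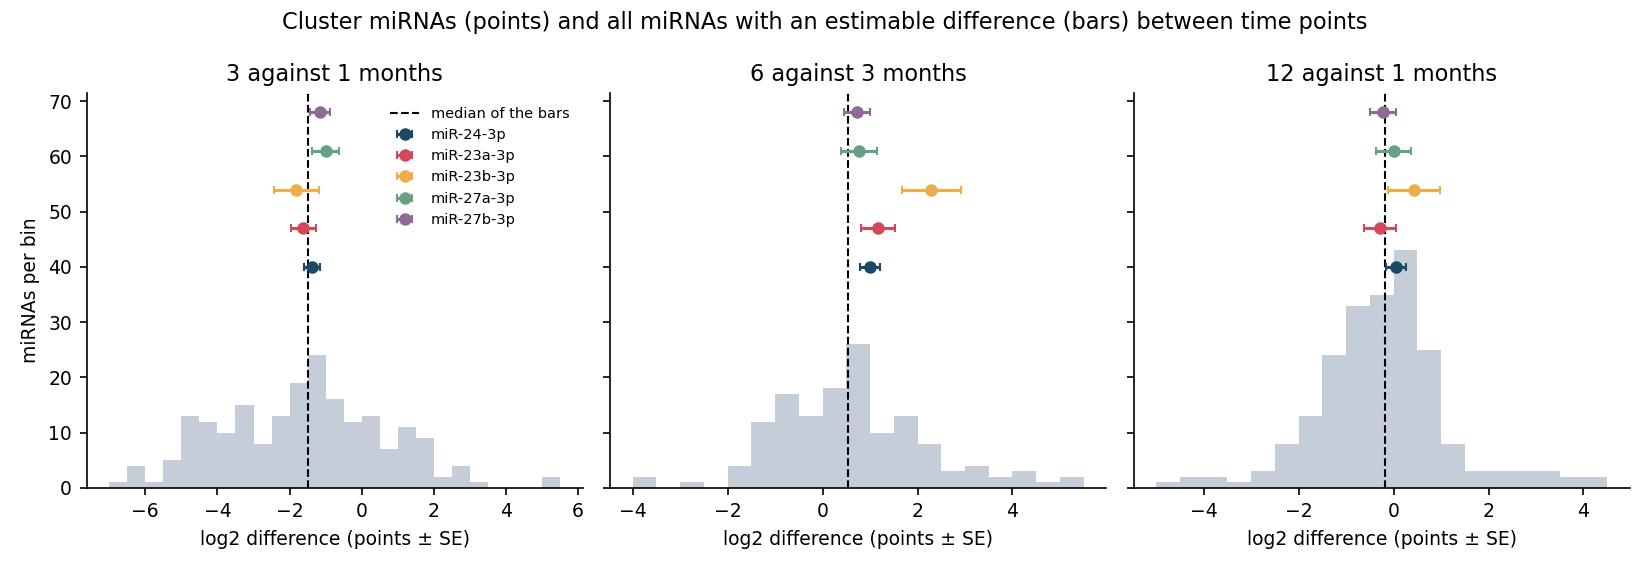
Fitted log2 differences between time points: grey bars give the number of miRNAs per bin of 0.5 among those with an estimable difference, the dashed line is their median, and coloured points with bars are 5 arms ± SE, their height being arbitrary. At 3 against 1 month the arms lie from -1.81 to -1.003 around the median of -1.496, and at 12 against 1 month they lie around 0.

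The other strands of the same hairpins were far rarer than their partners, as is usual for a passenger strand. Of the 6, 5 were tested at 3 against 1 month (not miR-24-1-5p), 4 had a difference that could be estimated (not miR-27b-5p) and 3 were called lower. That share is to be read against the 56.4% of all estimable miRNAs that were lower in this comparison. miR-27a-5p was counted in 97 of 138 libraries, miR-23a-5p and miR-24-2-5p in 81 each, miR-23b-5p in 48, miR-27b-5p in 13 and miR-24-1-5p in 9. At 3 against 1 month miR-27a-5p (-2.92 ± 0.72), miR-24-2-5p (-4.05 ± 0.87) and miR-23b-5p (-2.98 ± 0.89) were called lower (edgeR, adjusted p = 3.31e-04, 4.69e-05 and 3.25e-03). miR-23a-5p (0.01) was not called, and no SE is given for it because it is not reliable there. It was counted in 30 of 36 libraries at 1 month and in 17 of 36 at 3 months. miR-27a-5p was called higher again at 6 and at 12 against 3 months (2.40 ± 0.71 and 3.02 ± 0.72), and miR-24-2-5p at 12 against 3 months (2.88 ± 0.82). miR-24-2-5p was also lower at 6 against 1 month (-3.60 ± 0.83; edgeR, adjusted p = 1.17e-03) and was higher at 12 against 6 months (2.43 ± 0.76, adjusted p = 0.0237). miR-23b-5p was lower at 12 against 1 month (-2.32 ± 0.76, adjusted p = 0.0293).

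Markers of blood cells and tissues moved with the time points too, and their part in the change of the arms was not tested. The log2 ratio of miR-451-5p, a red cell miRNA, to miR-23a-3p, a usual index of haemolysis, had a median of -2.19 at 1 month and 0.96 at 3 months, then -1.30 and -1.95. It was above 0 in 5 of 36 libraries at 1 month and 27 of 36 at 3 months, and since miR-23a-3p is its denominator it moves with that arm as well as with red cell content. The summed level of the red cell list (4 of 5 names measured; miR-486 was not analysed here) was 1122 to 8727 CPM (median 3821) in the 35 libraries over 20000 counts at 1 month and 205 to 20572 (median 4522) in the 32 at 3 months. In it, miR-451-5p was higher and miR-144-5p lower at 3 months. The leukocyte and platelet list went from 2747 to 8867 CPM (median 5838) at 1 month to 2546 to 24171 (median 7740) at 3 months, with 1 of 4, miR-223-3p, higher. The endothelial list went from 239 to 8989 CPM (median 1733) to 0 to 5623 (median 953), with 1 of 2, miR-126a-3p, lower. The liver list was at 17212 to 194433 CPM (median 67997) and 28401 to 212203 (median 71591), with miR-122-5p higher and miR-192-5p lower of 3. The skeletal muscle list was at 56.0 to 14601 CPM (median 420) and 0 to 30295 (median 2073), with 2 of 4, miR-1-3p and miR-206-3p, higher. At 3 months miR-144-5p, miR-142-3p, miR-122-3p, miR-133a-3p and miR-133b-3p were at 0 in at least 50% of these libraries. At 3 against 1 month the SEs of miR-142-3p, miR-122-3p, miR-133a-3p and miR-133b-3p ran from 1235 to 3180. These miRNAs count in the list sizes above but could not be called in either direction.

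The arms differed in how steady they were between libraries. Over the 132 libraries above 20000 counts, miR-24-3p had an SD of 0.87 in log2 CPM, the sixth lowest of the 50 most abundant miRNAs, and 0.65 within groups. miR-27b-3p had 1.38 (rank 20 from the lowest), miR-27a-3p 1.95 (rank 39) and miR-23a-3p 1.96 (rank 40), while the rarer miR-23b-3p had 2.78. The steadiest arm was thus the most deeply counted.

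Across the 35 group means of log2 CPM the arms followed each other to different degrees, as a description of points that share library depth and the scaling. Spearman's rho was 0.83 between miR-23a-3p and miR-23b-3p and 0.83 between miR-24-3p and miR-27a-3p, but 0.51 between miR-24-3p and miR-27b-3p and 0.58 between miR-27a-3p and miR-27b-3p. Of all other miRNAs kept by the filter, those most like miR-24-3p over the 35 groups were miR-378a-3p (0.76), miR-22-3p (0.76) and miR-503-3p (0.76). miR-23a-3p was closest to miR-351-3p (0.87), miR-145-5p (0.87) and miR-143-5p (0.83), and miR-23b-3p to miR-145-5p (0.85), miR-652-3p (0.84) and miR-125a-3p (0.81). miR-27a-3p was closest to miR-503-3p (0.78), miR-126a-3p (0.77) and miR-484 (0.76), and miR-27b-3p to miR-145-5p (0.80), miR-125a-3p (0.78) and miR-455-3p (0.78). For miR-3074, at 0 in most libraries, the highest value was 0.57, with miR-34c-5p, followed by miR-425-3p (0.51) and miR-142-3p (0.48).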

How the data were processed

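The deposited table holds the authors' raw counts for 471 mature miRNAs, 1 column for each of 138 serum libraries. Per the labels' protocols, a Norgen kit for small RNA was used and the sequencer was a NextSeq. The build was Rnor_6.0 per the submitters' processing notes. Not given in the sources used here are the aligner, the counter and how reads with several loci were treated. The count table was analysed in R 4.3.3 with edgeR 4.0.16 (filterByExpr with minimum count 10 and minimum total 15, TMM factors, quasi-likelihood tests, 1 mean per metal and time point, p-values adjusted by Benjamini-Hochberg over all miRNAs tested in a comparison, called at an adjusted p under 0.05). The SE of an edgeR difference is its size divided by the square root of the test's F statistic. It is therefore approximate, above all for rare miRNAs. Single time points were fitted on their own. Averages over time points and comparisons of time points, the latter as an unweighted mean over the 8 metals with 4 time points, used all libraries. Shares within a library were tested with 100000 permutations of the labels within time points or metals. All miRNAs of the clusters are given in each comparison, with the 6 other strands of their hairpins, the 3 other miRNAs with the highest Spearman correlation to each, and 5 marker lists (red cell, leukocyte and platelet, endothelium, liver, skeletal muscle). The scripts were tested on simulated data, in which edgeR returned the direction of the changed miRNAs but unchanged miRNAs made up a larger share of its calls than the adjusted threshold allows, so calls near the threshold are less certain than their adjusted p. Sequences and hairpin positions come from RefSeq (GRCr8), by name, for 6 of 6 miRNAs and 5 of 6 other strands. The miRNAs, lists and comparisons were chosen with earlier results of these data known.

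Alternatives were RLE size factors, no low-count filter, DESeq2 1.42.0, a replicate block, leaving out libraries, metals, time points or the libraries under 20000 counts, thinning to 100000 counts, and other settings for the shares. Chosen after seeing the data were dividing counts by a common multiple, halving miR-24-3p, summing copies, and the test of metal by time interaction. Samples with the same number deviated together (every correlation over 0.1) in only 2 of 31 pairs of a metal with Ta and 1 of 48 pairs of time points, so the numbers were not taken to pair samples.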

Additional observations from a re-analysis of the deposited data

Results flagged for a closer look

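Each of the 5 arms was looked at in every group of 4 libraries, 165 sets of values in all. In 15 of them the highest or lowest library stood apart from the other 3 by Dixon's criterion, where chance gives about 1 in 20 groups. Of these 15, 6 are libraries under 20000 counts. In the W library at 12 months, replicate 3 (3789 counts in all), miR-23a-3p and miR-27a-3p were at 0 CPM and miR-27b-3p at 569 CPM. In DU at 3 months, replicate 4 (518 counts), miR-23a-3p and miR-27b-3p were at 0 CPM, and in Co at 1 month, replicate 1 (12213 counts), miR-23a-3p was at 0 CPM.

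The other 9 are in deeper libraries. miR-24-3p was at 43134 CPM in Cu at 12 months, replicate 1, below the 68337 to 74320 CPM of the other 3, and at 63079 CPM in Ni at 6 months, replicate 4, above 51523 to 52264. miR-23a-3p was at 0 CPM in Co at 3 months, replicate 3 (others 637 to 1554), at 20.6 CPM in Pb at 3 months, replicate 3 (others 2271 to 5018), at 5847 CPM in Ni at 1 month, replicate 2 (others 7935 to 8222), and at 3375 CPM in W at 3 months, replicate 4 (others 1546 to 1634). miR-23b-3p was at 0 CPM in Al at 12 months, replicate 3 (others 86.7 to 203). It was at 46.5 CPM in Cu at 3 months, replicate 2, and at 97.0 CPM in W at 3 months, replicate 2, where the other 3 libraries of each group were at 0.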

How the results depend on the processing

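The count of 0 calls at single time points was 0 under 8 other settings and with each of the 138 libraries left out, and the shares gave 0 calls under 4 other settings for each family. The 1 call against Ta averaged over time points (miR-3074 in DU) became 2 without the low-count filter (Ni, adjusted p = 0.0375), 9 with DESeq2, and 0 without the 1-month, the 3-month or the 12-month libraries, and lay between 0 and 1 when single libraries were left out. With a replicate block it became 0 (adjusted p = 0.0567), the numbers not pairing the samples. The 13 calls between time points became 5 with RLE size factors, and no setting reversed a direction. With RLE the 5 calls at 3 against 1 month became 2, the 3 at 6 against 3 months became 1 and the 5 at 12 against 3 months became 2. RLE was not the only setting to weaken single arms. At 3 against 1 month miR-27b-3p and miR-27a-3p were clearly weaker in 2 of 7 other settings, with differences as small as -0.42 and -0.30. At 6 against 3 months miR-23a-3p was clearly weaker in 2 of 7. The 5 calls at 12 against 3 months became 3 without the filter and 3 with DESeq2, and the 0 at 12 against 6 months became 1 with DESeq2, which was miR-3074. The cause was not tested. Thinning to 100000 counts, the block, and leaving out libraries under 20000 counts left 5 calls at 3 against 1 month. miR-3074 and miR-23b-3p were at 0 in many libraries at 3 months, and the part of depth in this was not tested.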
